A study of Mus musculus with 16 samples.

Results

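Messages of the actin and tubulin cytoskeleton were followed as 38 named mouse genes out of 48158 genes in the table: actins, tubulins, tropomyosins, subunits of non-muscle myosin II, and proteins that bind actin or tubulin. They were chosen by name, with earlier results of these data known. The level of a gene is the sum of the FPKM (fragments per kilobase of transcript, scaled to the size of the library) of its transcripts, and 37 of the 38 reached 1 FPKM in at least 2 libraries. The exception was Vil1, which encodes the microvillus protein villin and stayed at or below 0.09 FPKM in all 16 libraries. Tubb2b passed that filter only through DDC libraries.

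The study compared hepatocytes, the parenchymal cells of the liver, of FVB mice fed DDC for 4 weeks with those of FVB mice on normal chow. DDC is a porphyrinogenic compound that injures bile ducts and hepatocytes when fed to mice. In both diets the cells were isolated with cycloheximide, which holds ribosomes on their messages, and polyadenylated RNA was sequenced from cytoplasm and from 3 fractions of a sucrose gradient, which hold messages on 1 ribosome (monosomes), on 2 to 4 (light polysomes) and on more than 5 (heavy polysomes). Each of the 8 groups of diet and pool had 2 libraries. The DDC fractions are labelled as preparations B and C and the DDC cytoplasm as C2 and D2, while the chow fractions are labelled CH1_CH2 and CH3_CH4 and the chow cytoplasm CH1 and CH3. The labels do not say that the 2 libraries of a group came from separate animals. P-values measure the spread between these libraries, which in DDC may be technical. The chow replicates differed in sex-linked genes, given below, so they held RNA of different animals.

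Actin filaments grow from monomers that thymosins sequester and profilin delivers, branch at the Arp2/3 complex, are cut by cofilin, stabilised by tropomyosins and pulled by myosin II. Microtubules are built from dimers of α- and β-tubulin, and stathmin holds free dimers and promotes disassembly. In hepatocytes the actin network lines the bile canaliculus and microtubules carry secretory cargo; actin-rich cells such as macrophages, bile duct cells and stellate cells also occur in liver.

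Tubulin genes begin with codons that are alike within the α- and within the β-tubulins. In mammalian cells the short stretch that the first codons encode is recognised on nascent tubulin chains when free tubulin is in excess, and the message is then degraded. The first 30 coding bases (GENCODE M21, GRCm38) are shown with codons 2 to 4 in capitals, because they separate the α- from the β-tubulins.
Tuba1a: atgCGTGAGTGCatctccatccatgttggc
Tuba1b: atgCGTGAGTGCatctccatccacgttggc
Tuba4a: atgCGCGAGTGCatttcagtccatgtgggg
Tubb2a: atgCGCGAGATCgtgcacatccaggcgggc
Tubb2b: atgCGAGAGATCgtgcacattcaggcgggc
Tubb4b: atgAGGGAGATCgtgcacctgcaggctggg
Tubb5: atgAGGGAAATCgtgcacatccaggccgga
The start of Tuba1c has the same letters as that of Tuba1b. Over the whole coding sequence Tuba1a and Tuba1b were 98.3% identical, Tubb2a and Tubb2b 96.5%, Myl12a and Myl12b 96.5%, and Actb and Actg1 88.7%. Reads may be split between such pairs, so the levels of the single members of each pair are uncertain.

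The 2 β-thymosins encode small proteins that bind actin monomers. Averaged over both diets, their messages had the lowest level on heavy polysomes relative to monosomes of all members. Their whole coding sequences (GENCODE M21, GRCm38) are shown because both are only 135 bases long, with the 40 bases at which they differ in capitals; identity was 70.4%.
Tmsb4x: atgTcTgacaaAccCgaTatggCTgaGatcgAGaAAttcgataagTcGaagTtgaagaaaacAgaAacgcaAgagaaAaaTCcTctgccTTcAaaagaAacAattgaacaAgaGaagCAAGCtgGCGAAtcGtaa
Tmsb10: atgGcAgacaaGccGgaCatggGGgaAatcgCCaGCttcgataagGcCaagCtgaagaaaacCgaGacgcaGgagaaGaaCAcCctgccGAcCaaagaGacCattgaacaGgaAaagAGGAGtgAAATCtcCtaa

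Of the 38 members, 34 matched a promoter in the RefSeq table (GRCm38.p6, 250 bases before to 50 after the start). Since many cytoskeletal genes are known targets of serum response factor, these windows were searched on both strands for the CArG box, its binding motif. A box was found in 4 of the 34 (11.8%), against 488 of 27025 genes with a window (1.81%); Arpc4 held one at the far edge of its window, and the other 3, which include the member with the highest mean over all libraries (Myl6) and the one near 0 (Vil1), are shown with the box in capitals. Matches are letters in a window and not measured binding.
Actg1 (chr11:120348556-120348605, minus strand): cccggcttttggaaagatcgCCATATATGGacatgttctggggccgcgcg
Myl6 (chr10:128493030-128493079, minus strand): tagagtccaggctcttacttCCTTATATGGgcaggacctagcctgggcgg
Vil1 (chr1:74409291-74409340, plus strand): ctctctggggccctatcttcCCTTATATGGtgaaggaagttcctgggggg

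Library totals ran between 373976 and 1379630 FPKM, and 8313 to 9874 genes reached 1 FPKM. Of 7 marker lists, hepatocyte markers had the highest sums, 18880 to 32500 FPKM in DDC cytoplasm and 34150 to 42010 in chow cytoplasm, led by Apoa2 and Ttr; Alb was listed at 0 in all 16 libraries. The hepatocyte sum was also lower in DDC on monosomes (36170 to 39970 FPKM, against 52110 to 54260 FPKM in chow). It was higher in DDC on light polysomes (37570 to 44370 FPKM, against 16430 to 17590 FPKM in chow). On heavy polysomes it was 51890 to 101400 FPKM in DDC, against 38760 to 44600 FPKM in chow. Of its 12 genes 9, 8, 6 and 7 were tested in cytoplasm, monosomes, light and heavy polysomes. In each pool 3 were called lower and none higher (all genes, 9.68%, 15.9%, 13.5% and 10.9% lower). Genes at 0 in both libraries of a group but at 100 FPKM or more in another library were not tested. They enter the sums as 0, and how far this moves the sums was not tested. Markers of other liver cells were present, and those of some types moved with diet. In cytoplasm 12.7% of all genes were called higher in DDC. All 17 macrophage markers were tested in cytoplasm and 14 were called higher in DDC, summing to 788 to 1194 FPKM against 105 to 140 FPKM in chow, led by Lyz2 and C1qa. On heavy polysomes their sum was 5479 to 6843 FPKM in DDC against 318 to 518 FPKM in chow. Of 14 bile duct markers, 9 were tested in cytoplasm and 7 rose, summing to 170 to 225 FPKM in DDC and 24.2 to 24.8 FPKM in chow, led by Anxa4 and Spp1, with Krt19 at 0 in 8 of 16 libraries. Of 15 stellate and smooth muscle markers, 13 were tested and 9 rose, summing to 146 to 172 FPKM in DDC and 31.1 to 49.6 FPKM in chow, led by Bgn and Dcn, with Acta2 at 0 in 8 libraries. None of 10 tested endothelial markers (led by Clec4g and Egfl7), 3 lymphocyte and neutrophil markers (led by S100a8 and S100a9) or 5 red blood cell markers (Hba-a1 and Hbb-bs) was called in cytoplasm by limma; their sums ran from 50.2 to 67.6, 6.92 to 16.4 and 8.39 to 12.8 FPKM in DDC, and from 51.2 to 54.1, 0.808 to 2.27 and 2.76 to 9.36 FPKM in chow. On monosomes, light and heavy polysomes 1, 2 and 3 of 10 endothelial markers were called higher in DDC. Of 3 lymphocyte and neutrophil markers 1, 2 and 2 were, and no red blood cell marker was. The shares of all genes called higher were 21%, 16.6% and 13.9%, so the endothelial counts on monosomes and light polysomes were below or near them. On heavy polysomes the endothelial sum was 152 to 253 FPKM in DDC against 109 to 131 FPKM in chow. The lymphocyte and neutrophil sum there was 22.4 to 38.2 FPKM in DDC against 2.44 to 2.51 FPKM in chow. The 4 chow libraries of replicate 1 held Xist at 0.039 to 2.45 FPKM with the Y-linked Eif2s3y at 0, and the other 12 had no Xist and Eif2s3y at 4.20 to 34.5 FPKM, so sex as read from these genes also differs between chow replicates. In bulk RNA, fewer or more cells of a type and less or more RNA per cell cannot be told apart, and the part of RNA from these other cell types in the differences given next was not tested.

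In DDC hepatocytes most of the cytoskeletal messages were more abundant than in chow hepatocytes, in every RNA pool. In cytoplasm 28 of the 37 tested members were called higher and none lower, where 12.7% of all genes were called higher and 9.68% lower (limma on log2(FPKM + 1), Benjamini-Hochberg adjusted p under 0.05 over all genes tested). Tubb2b, which could pass the filter only by being higher in DDC, is in this count and in that of heavy polysomes; without it 27 of 36 members were higher in cytoplasm and 25 of 36 on heavy polysomes. On monosomes 27 were higher and 0 lower (all genes, 21% and 15.9%), on light polysomes 23 and 0 (16.6% and 13.5%), and on heavy polysomes 26 and 0 (13.9% and 10.9%). At an unadjusted p under 0.05 no member was lower in any of the 4 pools either (all genes, 15.9%, 20.7%, 19.1% and 16.7%), and 33, 28, 30 and 30 were higher (all genes, 18.8%, 26.1%, 22.6% and 19.8%). The median member differed by 1.34, 1.16, 1.29 and 1.39 (log2, DDC minus chow) in cytoplasm, monosomes, light and heavy polysomes, against 0.01, 0.04, 0.01 and 0.02 over all genes.

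Called higher in all 4 pools were 20 members (all genes, 6.81%), in 3 pools 3, in 2 pools 6 and in 1 pool 3. The 6 never called were Tuba1c, Tuba4a, Vil1, Arpc3, Arpc4 and Arpc5. Both DDC libraries lay above both chow libraries for 36 of 38 members in cytoplasm (38.3% of genes past the filter), 33 on monosomes (34.8%), 33 on light polysomes (36.5%) and 34 on heavy polysomes (29.9%). Both DDC libraries lay below both chow libraries for 0 members in cytoplasm (36.1% of genes), for 1 on monosomes, Arpc5 (30.7%), for 0 on light polysomes (33.9%) and for 0 on heavy polysomes (26.2%). With the 4 chow libraries of replicate 1 left out, 14, 17, 16 and 14 members were called higher in the 4 pools (all genes, 4.69%, 14.7%, 8.31% and 9.15%) and none lower (all genes, 3.56%, 12.5%, 7.12% and 6.38%); Tuba1b, Tubb2a, Tubb4b, Tubb5, Tubb6, Stmn1, Actg1, Arpc1b and Zyx were called in each of the 4 in that smaller fit. The heat map of all members by library shows the same order of values.

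**Figure D1:**
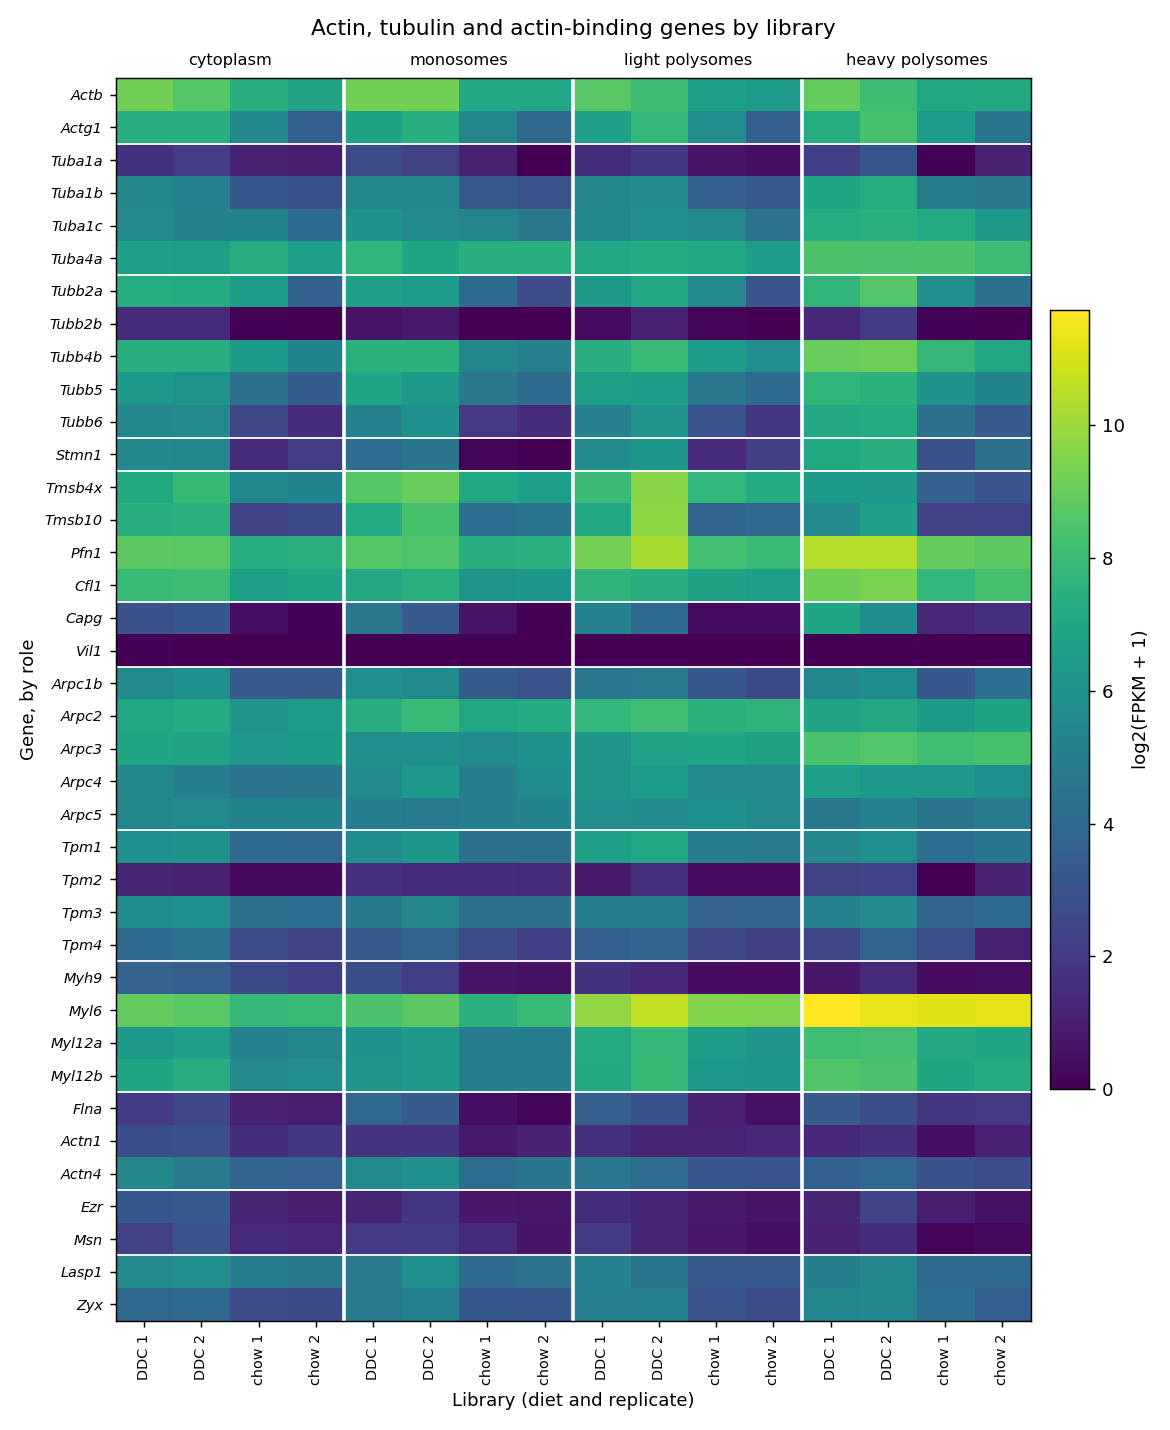
Level of each of the 38 genes, as log2(FPKM + 1) in colour, in the 16 libraries, with columns by RNA pool (DDC 1, DDC 2, chow 1, chow 2 in each) and rows by role, separated by white lines. DDC columns are brighter than chow columns for most rows; Vil1 is dark throughout, and Myl6 is brightest on heavy polysomes in both diets.

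**Figure D2:**
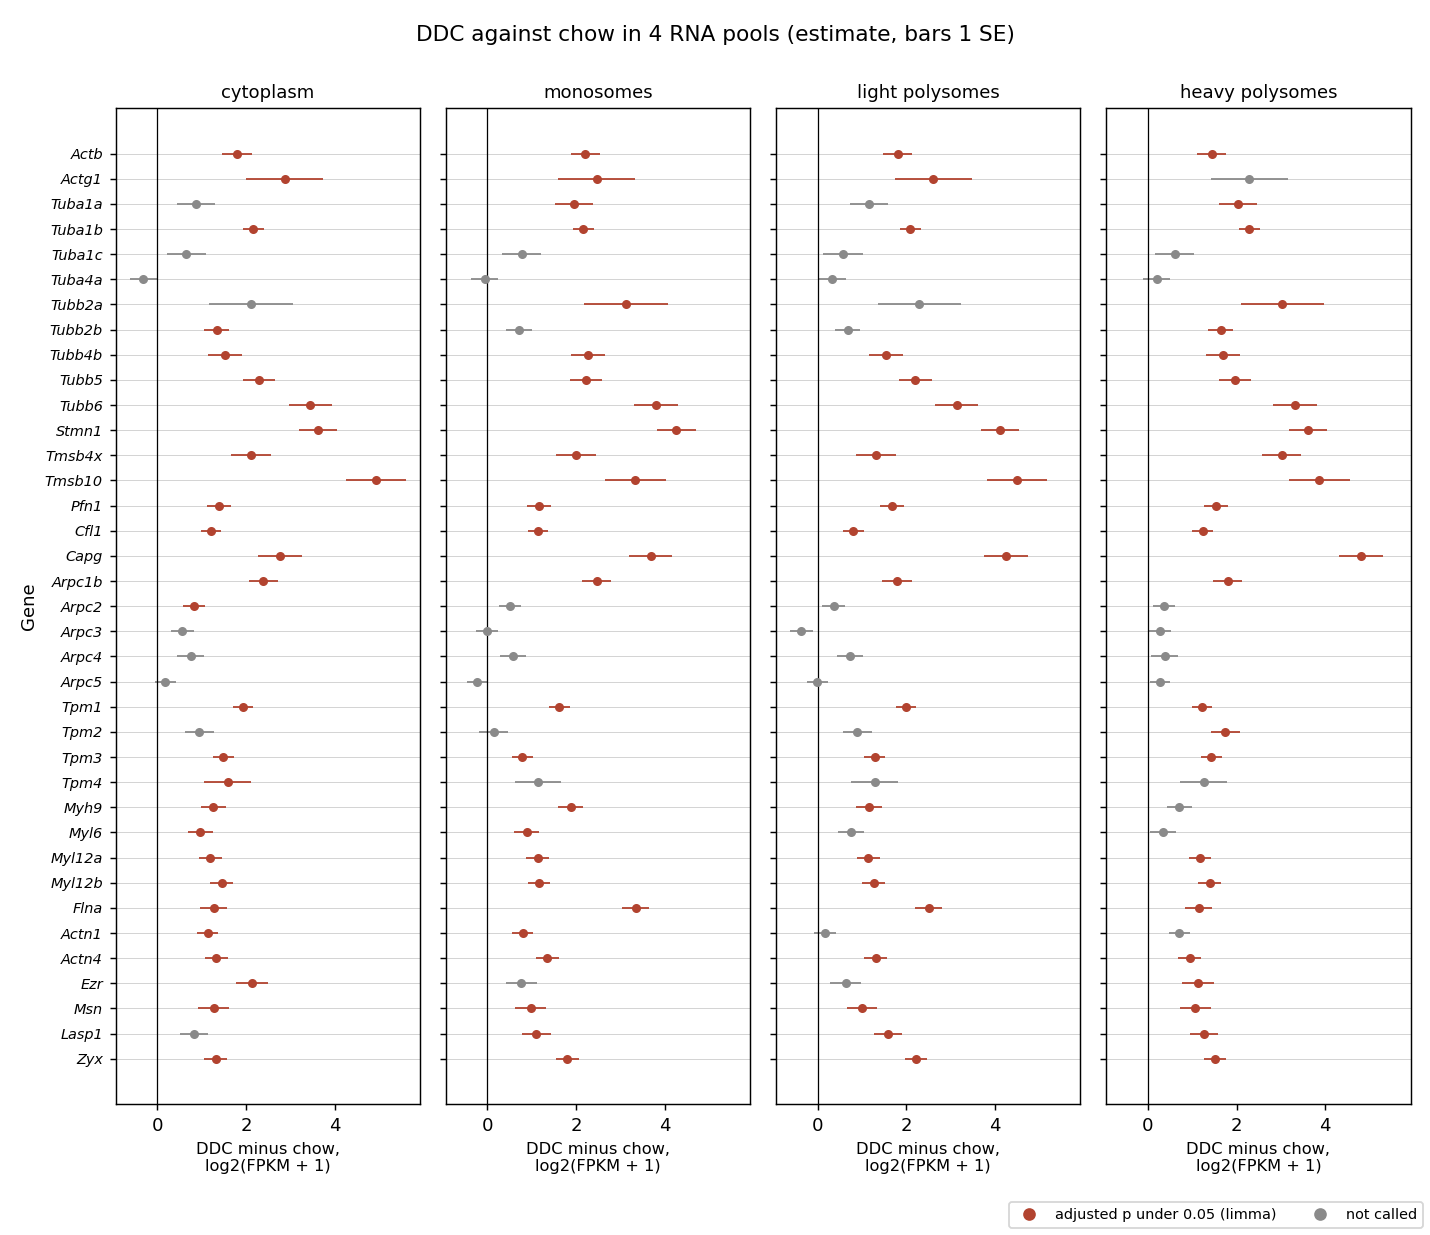
DDC minus chow on the log2(FPKM + 1) scale for the 37 tested genes in 4 RNA pools, as estimate with bars of 1 SE from limma; red points have an adjusted p under 0.05. Called members number 28, 27, 23 and 26 from left to right, all to the right of 0.

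Both cytoplasmic actins were higher in DDC. Actb, β-actin (chr5:142903115-142906754, minus strand), had 594 and 394 FPKM in DDC cytoplasm, against 168 and 114 FPKM in chow cytoplasm. On monosomes it had 600.4 and 596 FPKM in DDC, against 127 and 131 FPKM in chow. The DDC libraries did not overlap the chow libraries in either pool. On light polysomes Actb had 411 and 262 FPKM in DDC, against 101 and 86.3 FPKM in chow, and on heavy polysomes 495 and 272 FPKM in DDC, against 128 and 141 FPKM in chow. The log2 change was 1.80 ± 0.33 (SE) in cytoplasm, 2.21 ± 0.33 on monosomes, 1.80 ± 0.33 on light polysomes and 1.45 ± 0.33 on heavy polysomes, with limma adjusted p of 0.00272, 0.000417, 0.00181 and 0.00725. Part of the Actb sum is a noncoding transcript of 241 bases, listed at 0 in all 8 chow libraries and at up to 313 FPKM in DDC. With transcripts under 500 bases left out, the Actb change was 1.62, 1.28, 1.11 and 1.09 in the 4 pools and was called in each. The heavy polysome call was lost without DDC heavy polysome replicate 1 (1.01, adjusted p = 0.0603) and without chow replicate 1 (1.38, adjusted p = 0.103).

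Actg1, γ-actin (chr11:120345690-120348542, minus strand), had 161 and 167 FPKM in DDC cytoplasm, against 43.9 and 10.3 FPKM in chow cytoplasm. On monosomes it had 113 and 168 FPKM in DDC and 40.2 and 14.3 FPKM in chow; on light polysomes 103 and 226 FPKM in DDC and 53.5 and 10.6 FPKM in chow; on heavy polysomes 152 and 317 FPKM in DDC and 86.3 and 22.5 FPKM in chow. The diets did not overlap, but the chow replicates differed 2.8-fold or more in every pool, replicate 1 being the higher. The change in cytoplasm was 2.87 ± 0.87 (SE, adjusted p = 0.0335), and the heavy polysome difference of 2.28 ± 0.87 was not called (adjusted p = 0.0766). A transcript of 326 bases held up to 94.1 FPKM of the DDC sums and at most 0.969 FPKM in chow; without transcripts under 500 bases the cytoplasmic value was 2.18 (adjusted p = 0.0792) and the light polysome value 1.94 (adjusted p = 0.0972), and neither was called. Leaving out chow cytoplasm replicate 2 gave 1.88 (adjusted p = 0.262), DDC cytoplasm replicate 1 gave 2.90 (adjusted p = 0.129) and DDC cytoplasm replicate 2 gave 2.84 (adjusted p = 0.132). The monosome and light polysome calls of Actg1 each ended in 5 of the 16 fits without 1 library (chow replicate 2, either DDC library of that fraction, or either DDC cytoplasm library). Values were 1.75 to 2.75 on monosomes and 1.498 to 3.18 on light polysomes. Without chow heavy polysome replicate 1, the higher chow library, the heavy polysome value was 3.23, with 1 chow library left in that group.

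Of the 4 α-tubulins, Tuba1b rose in all 4 pools and Tuba1a in 2. Tuba1b had 39.6 and 34.4 FPKM in DDC cytoplasm, against 8.53 and 6.46 FPKM in chow cytoplasm, and 40.9 and 41.4 FPKM on DDC monosomes, against 9.69 and 7.29 FPKM on chow monosomes. On light polysomes Tuba1b had 39.9 and 49.0 FPKM in DDC and 10.8 and 8.57 FPKM in chow, and on heavy polysomes 121 and 155 FPKM in DDC and 29.9 and 24.9 FPKM in chow. Its log2 change was nearly the same everywhere: 2.17 ± 0.24, 2.16 ± 0.24, 2.09 ± 0.24 and 2.29 ± 0.24 in cytoplasm, monosomes, light and heavy polysomes (SE; limma adjusted p of 0.000106, 6.77e-05, 9.34e-05 and 4.35e-05). These 4 calls held under all 28 alternatives.

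Tuba4a, the α-tubulin with the highest mean over all libraries, was not called in any pool. It had 104 and 96.8 FPKM in DDC cytoplasm against 157 and 99.2 FPKM in chow, 210.0 and 117 FPKM on DDC monosomes against 161 and 168 FPKM on chow monosomes, 130.2 and 148 FPKM on DDC light polysomes against 127 and 95.6 FPKM on chow light polysomes, and 352 and 342 FPKM on DDC heavy polysomes against 350.2 and 261 FPKM on chow heavy polysomes. The diets overlapped in 3 of 4 pools. Most of its sum (72.9%) is a transcript annotated with an incomplete coding sequence. Tuba1c averaged 40.5 FPKM in DDC cytoplasm and 27.3 FPKM in chow cytoplasm, a log2 difference of 0.65 ± 0.44 that was not called (adjusted p = 0.328). Tuba1a was low, at 1.90 to 7.70 FPKM in DDC libraries and 0 to 1.21 FPKM in chow libraries, and was called on monosomes (1.94) and heavy polysomes (2.04).

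The make-up of the α-tubulin messages differed between diets. Tuba1b was 20.8% and 20.1% of the summed α-tubulin FPKM in DDC cytoplasm, against 4.2% and 5.2% in chow cytoplasm. Tuba4a was 54.6% and 56.5% in DDC cytoplasm, against 76.8% and 80.4% in chow cytoplasm. Over all 4 pools Tuba1b was 12.7% to 22.7% in DDC libraries and 3.7% to 6.8% in chow libraries, with no overlap. The summed α-tubulin level itself was 190.3 and 171 FPKM in DDC cytoplasm, against 204 and 123 FPKM in chow cytoplasm, and these overlapped.

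Of the 5 β-tubulins, Tubb4b, Tubb5 and Tubb6 were called higher in all 4 pools and Tubb2a and Tubb2b in 2 pools each. Tubb4b, with the highest mean of them over all libraries, had 164 and 164 FPKM in DDC cytoplasm against 83.4 and 37.9 FPKM in chow, and 186 and 185 FPKM on DDC monosomes against 42.7 and 33.7 FPKM on chow monosomes. On light polysomes it had 168 and 241 FPKM in DDC and 89.1 and 52.4 FPKM in chow, and on heavy polysomes 516 and 562 FPKM in DDC and 221 and 124 FPKM in chow. Its change was 1.53 ± 0.39, 2.26 ± 0.39, 1.55 ± 0.39 and 1.69 ± 0.39 across the 4 pools, each called, with no overlap of diets. The cytoplasmic call was lost when chow cytoplasm replicate 2 (0.97, adjusted p = 0.16), DDC cytoplasm replicate 1 (1.52, adjusted p = 0.0789) or DDC cytoplasm replicate 2 (1.53, adjusted p = 0.077) was left out. The light polysome call of Tubb4b ended without chow light polysome replicate 2 (1.17) or DDC light polysome replicate 2 (1.29), and the heavy polysome call without chow heavy polysome replicate 2 (1.28).

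Tubb6 had the largest change of the tubulins. It had 41.9 and 45.3 FPKM in DDC cytoplasm, against 4.88 and 1.83 FPKM in chow, and 34.4 and 57.9 FPKM on DDC monosomes, against 2.87 and 1.78 FPKM on chow monosomes. On light polysomes Tubb6 had 33.5 and 66.7 FPKM in DDC, against 7.11 and 2.74 FPKM in chow, and on heavy polysomes 135 and 147 FPKM in DDC, against 18.9 and 9.18 FPKM in chow. The changes were 3.45 ± 0.49, 3.80 ± 0.49, 3.13 ± 0.49 and 3.32 ± 0.49 (adjusted p of 0.000564, 0.000176, 0.000695 and 0.000544), and all 4 calls held under the 28 alternatives. Tubb6 was 7.7% to 14.2% of the β-tubulin sum in DDC libraries and 2.4% to 5.2% in chow libraries.

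Tubb5 rose in all 4 pools, by 1.97 to 2.30. Tubb2a had 155 and 147 FPKM in DDC cytoplasm, against 96.1 and 11.7 FPKM in chow cytoplasm, whose 2 libraries differed 8.22-fold. Its cytoplasmic difference of 2.12 ± 0.94 was not called (adjusted p = 0.133), nor was the light polysome difference of 2.29 ± 0.94 (adjusted p = 0.0862); monosomes (3.12) and heavy polysomes (3.04) were called. Without chow cytoplasm replicate 1, the higher chow library, the Tubb2a value in cytoplasm was 3.58. Without the chow replicate 1 libraries of all pools it was 3.58 in cytoplasm and 3.57 on light polysomes, with 1 chow library left in each. The monosome call of Tubb2a ended without chow monosome replicate 2 or either DDC monosome library, with values of 2.45 to 3.25. The heavy polysome call of Tubb2a ended without chow heavy polysome replicate 2 or either DDC heavy polysome library, with values of 2.27 to 3.48. Tubb2b, which shares most of its sequence with Tubb2a, had 0.263 to 3.25 FPKM in DDC libraries and at most 0.107 FPKM in chow libraries. The summed β-tubulin level was 441 and 425 FPKM in DDC cytoplasm, against 204 and 61.5 FPKM in chow cytoplasm.

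**Figure D3:**
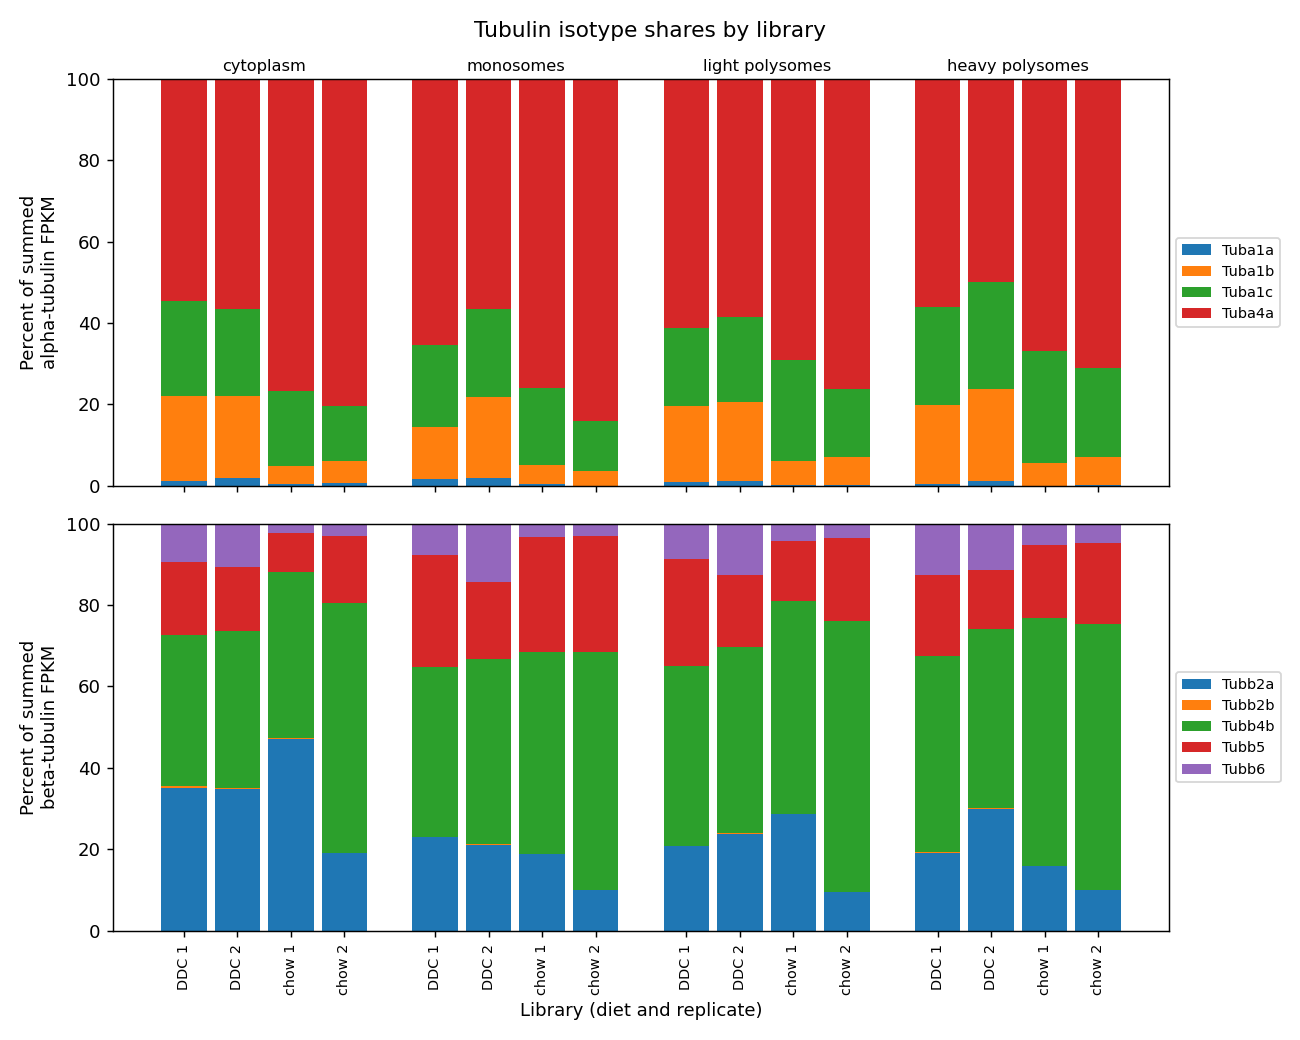
Share of each gene in the summed FPKM of the α-tubulins (top) and β-tubulins (bottom), in percent, as 1 stacked bar for each of the 16 libraries, grouped by RNA pool. Tuba1b takes 12.7% to 22.7% of the α-tubulin sum in DDC bars and 3.7% to 6.8% in chow bars, and Tubb6 7.7% to 14.2% of the β-tubulin sum in DDC bars and 2.4% to 5.2% in chow bars.

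Stmn1, stathmin, the destabiliser of microtubules (chr4:134468320-134473843, plus strand), was low in chow libraries and higher in every DDC library. It had 42.2 and 41.4 FPKM in DDC cytoplasm, against 1.73 and 3.43 FPKM in chow cytoplasm, and 17.4 and 22.0 FPKM on DDC monosomes, against 0.15 and 0 FPKM on chow monosomes. On light polysomes it had 50.1 and 72.5 FPKM in DDC and 1.67 and 3.74 FPKM in chow, and on heavy polysomes 137 and 165 FPKM in DDC and 6.56 and 19.4 FPKM in chow. The changes were 3.62 ± 0.43, 4.26 ± 0.43, 4.11 ± 0.43 and 3.61 ± 0.43 (SE; adjusted p of 0.000179, 4.69e-05, 5.92e-05 and 0.000121).

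All 4 genes for actin monomer binding and severing rose in all 4 pools. Tmsb10, thymosin β10 (chr6:72957347-72958748, minus strand), had the largest cytoplasmic change of all members: 168 and 179.9 FPKM in DDC cytoplasm, against 4.52 and 4.97 FPKM in chow cytoplasm. On monosomes it had 146 and 318 FPKM in DDC and 18.3 and 22.8 FPKM in chow; on light polysomes 125 and 868 FPKM in DDC and 12.7 and 14.8 FPKM in chow; on heavy polysomes 48.7 and 104 FPKM in DDC and 3.80 and 4.09 FPKM in chow. No DDC library came near a chow library, while the 2 DDC light polysome libraries lay far apart. The change was 4.93 ± 0.68 in cytoplasm, 3.34 ± 0.68 on monosomes, 4.49 ± 0.68 on light polysomes and 3.87 ± 0.68 on heavy polysomes (adjusted p of 0.000488, 0.00276, 0.000572 and 0.00164). Without chow replicate 1 the monosome (3.19, adjusted p = 0.0622) and heavy polysome (3.82, adjusted p = 0.0513) values were not called.

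Tmsb4x, thymosin β4 (chrX:167207093-167209315, minus strand), had 138 and 232 FPKM in DDC cytoplasm, against 43.5 and 38 FPKM in chow cytoplasm. On monosomes it had 399 and 519 FPKM in DDC and 132 and 97.8 FPKM in chow; on light polysomes 258 and 794 FPKM in DDC and 217 and 150.4 FPKM in chow; on heavy polysomes 84.4 and 77.8 FPKM in DDC and 11.2 and 7.46 FPKM in chow. The diets did not overlap in any pool. The changes were 2.11 ± 0.45, 1.99 ± 0.45, 1.32 ± 0.45 and 3.02 ± 0.45 in the order of the pools. Without DDC cytoplasm replicate 2 the cytoplasmic value of Tmsb4x was 1.74 (adjusted p = 0.0657). Its light polysome call ended in 7 of the 16 fits without 1 library (either library of chow cytoplasm, of chow light polysomes or of DDC heavy polysomes, or DDC light polysome replicate 2), with the lowest value, 0.51, without DDC light polysome replicate 2.

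Pfn1, profilin 1, which carries monomers to growing filament ends, had 440.0 and 416 FPKM in DDC cytoplasm against 154 and 171 FPKM in chow, and 401 and 359 FPKM on DDC monosomes against 163 and 176 FPKM on chow monosomes. On light polysomes it had 630.2 and 1201 FPKM in DDC and 298 and 244 FPKM in chow, and on heavy polysomes 1374 and 1377 FPKM in DDC and 505 and 443 FPKM in chow. The diets were separate throughout, with changes of 1.39 ± 0.27, 1.16 ± 0.27, 1.69 ± 0.27 and 1.54 ± 0.27. Cfl1, the severing protein cofilin 1, averaged 253 ± 8.88 FPKM in DDC cytoplasm and 109 ± 13.5 FPKM in chow cytoplasm (SD, n = 2), and rose by 0.80 to 1.24 in the 4 pools; its light polysome call ended without either chow light polysome library or DDC light polysome replicate 1 (0.68 to 0.87).

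Capg, a gelsolin-family capper of filament ends known from macrophages, was near 0 in most chow libraries. It had 6.57 and 8.32 FPKM in DDC cytoplasm, against 0.38 and 0.10 FPKM in chow cytoplasm, and 23.8 and 9.42 FPKM on DDC monosomes, against 0.57 and 0 FPKM on chow monosomes. On light polysomes it had 35.6 and 15.2 FPKM in DDC and 0.26 and 0.30 FPKM in chow, and on heavy polysomes 117 and 51.1 FPKM in DDC and 1.56 and 2.04 FPKM in chow. Its change was 2.77 ± 0.49, 3.68 ± 0.49, 4.25 ± 0.49 and 4.81 ± 0.49 across the pools (adjusted p of 0.00225, 0.00022, 0.000102 and 4.05e-05), the last being the largest change of any member on heavy polysomes. The macrophage marker sum was also highest on DDC heavy polysomes, but among the DDC pools so were the hepatocyte and endothelial sums. Which cells the Capg messages came from was not tested. Without chow replicate 1 the cytoplasmic value of Capg was 2.94 (adjusted p = 0.051).

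Of 5 subunits of the Arp2/3 complex, which nucleates branches, Arpc1b was called higher in all 4 pools, Arpc2 in 1 and the other 3 in none. Arpc1b had 47.8 and 59.1 FPKM in DDC cytoplasm against 9.23 and 9.41 FPKM in chow, 52.6 and 48.3 FPKM on DDC monosomes against 9.99 and 6.92 FPKM on chow monosomes, 23.6 and 26.9 FPKM on DDC light polysomes against 8.45 and 5.08 FPKM on chow light polysomes, and 41.7 and 51.6 FPKM on DDC heavy polysomes against 8.46 and 18.6 FPKM on chow heavy polysomes. Its changes were 2.39 ± 0.33, 2.46 ± 0.33, 1.79 ± 0.33 and 1.80 ± 0.33. Arpc2, the most abundant subunit by its mean over all 16 libraries though below Arpc3 on heavy polysomes, had 129.8 and 149 FPKM in DDC cytoplasm against 69.5 and 87.6 FPKM in chow, 160.3 and 237 FPKM on DDC monosomes against 127 and 148 FPKM on chow monosomes, 215 and 280.1 FPKM on DDC light polysomes against 184 and 198 FPKM on chow light polysomes, and 116 and 136 FPKM on DDC heavy polysomes against 84.3 and 113 FPKM on chow heavy polysomes. It was called in cytoplasm only (0.83 ± 0.25, adjusted p = 0.0367), and leaving out any of the 4 cytoplasmic libraries, or either chow light polysome library, ended that call, with values of 0.66 to 0.99. Arpc3, Arpc4 and Arpc5 were not called in any pool. Arpc5 averaged 43.9 ± 4.65 FPKM in DDC cytoplasm and 38.5 ± 0.382 FPKM in chow cytoplasm (SD, n = 2). Whether Arpc1b and the other subunits differ from each other was not tested.

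Of the tropomyosins, which coat filaments, Tpm1 and Tpm3 rose in all 4 pools. Tpm1 had 57.7 and 63.1 FPKM in DDC cytoplasm against 15.4 and 14.7 FPKM in chow, 51.1 and 72.8 FPKM on DDC monosomes against 18.8 and 19.5 FPKM on chow monosomes, 105 and 128 FPKM on DDC light polysomes against 29.9 and 27.1 FPKM on chow light polysomes, and 42.3 and 53.9 FPKM on DDC heavy polysomes against 17.8 and 22.5 FPKM on chow heavy polysomes. Its changes were 1.94 ± 0.23, 1.62 ± 0.23, 1.99 ± 0.23 and 1.21 ± 0.23, and the diets did not overlap. Tpm3 rose by 0.79 to 1.49, and its monosome call ended without either chow monosome library or DDC monosome replicate 2 (0.44 to 0.79). Tpm2 was low, at 0.82 to 4.07 FPKM in DDC libraries and 0 to 1.82 FPKM in chow libraries, and was called on heavy polysomes (1.74). Tpm4 was called in cytoplasm (1.59 ± 0.53, adjusted p = 0.0488), a call that 12 of the 16 fits without 1 library lost; leaving out a cytoplasmic library gave 1.38 to 1.80.

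Short tropomyosin forms, made from an internal promoter, dominated. Transcripts with a coding length of 747 bases held 90% to 100% of the Tpm1 level and 89.1% to 100% of the Tpm3 level over the 16 libraries. For Tpm4 they held 22.7% to 100%, the low value being chow heavy polysome replicate 1, and the median was 100%. Tpm2 had none, its main form having 855 coding bases. These shares come from transcript estimates that split shared reads and are given without a test.

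Non-muscle myosin II, the motor that pulls on filaments, was represented by 1 heavy chain and 3 light chains, and all 4 rose in cytoplasm and on monosomes. Myl6, the essential light chain, had the highest mean of all members over the 16 libraries. In DDC cytoplasm the mean of Actb was higher (494 against 458 FPKM), but Myl6 was higher in replicate 2. On DDC monosomes Myl6 was below Actb and Tmsb4x in both libraries. It had 487 and 429.5 FPKM in DDC cytoplasm against 223 and 242 FPKM in chow, 337 and 439.6 FPKM on DDC monosomes against 181 and 238 FPKM on chow monosomes, 899.6 and 1620.2 FPKM on DDC light polysomes against 722 and 707 FPKM on chow light polysomes, and 3412 and 2628 FPKM on DDC heavy polysomes against 2292 and 2435 FPKM on chow heavy polysomes. The change was 0.97 ± 0.29 in cytoplasm (adjusted p = 0.0297) and 0.89 ± 0.29 on monosomes (adjusted p = 0.0296), and the heavy polysome difference of 0.34 ± 0.29 was not called (adjusted p = 0.425). Leaving out any of the 4 cytoplasmic libraries ended the cytoplasmic call, with values of 0.88 to 1.06, and leaving out chow monosome replicate 1 or DDC monosome replicate 2 ended the monosome call (0.69).

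Myl12b, a regulatory light chain, had 122 and 158 FPKM in DDC cytoplasm against 45.7 and 55.0 FPKM in chow, 68.6 and 76.9 FPKM on DDC monosomes against 31.6 and 32.3 FPKM on chow monosomes, 139.9 and 229.5 FPKM on DDC light polysomes against 76.7 and 71.8 FPKM on chow light polysomes, and 372 and 332 FPKM on DDC heavy polysomes against 120.0 and 148 FPKM on chow heavy polysomes. Its changes of 1.45, 1.16, 1.26 and 1.39 were close to those of its near-identical neighbour Myl12a (1.19, 1.13, 1.14 and 1.17), and both were called in all 4 pools. The cytoplasmic call of Myl12a ended without chow cytoplasm replicate 1 or DDC cytoplasm replicate 2 (1.07 to 1.09), and its light polysome call without chow or DDC light polysome replicate 2 (0.80 to 0.92). The heavy chain Myh9 averaged 11.6 ± 1.12 FPKM in DDC cytoplasm and 4.32 ± 1.16 FPKM in chow cytoplasm (SD, n = 2). It was called in cytoplasm (1.26), on monosomes (1.88) and on light polysomes (1.16), and the heavy polysome difference of 0.71 ± 0.28 was not called (adjusted p = 0.0934). The Myh9 calls ended without chow replicate 2 or DDC replicate 1 of the same pool in cytoplasm (1.04 to 1.17) and on light polysomes (0.97 to 1.14), and without DDC heavy polysome replicate 1 the heavy polysome value was 1.04 and was called.

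All 3 crosslinkers rose in cytoplasm and on monosomes. Actn4, α-actinin 4, had 42.2 and 26.3 FPKM in DDC cytoplasm against 13.4 and 12 FPKM in chow, 46.7 and 59.6 FPKM on DDC monosomes against 18 and 22.4 FPKM on chow monosomes, 23.2 and 17.4 FPKM on DDC light polysomes against 7.76 and 7.28 FPKM on chow light polysomes, and 11.6 and 13.6 FPKM on DDC heavy polysomes against 6.57 and 5.56 FPKM on chow heavy polysomes. Its changes were 1.33 ± 0.26, 1.35 ± 0.26, 1.31 ± 0.26 and 0.95 ± 0.26. A transcript not annotated as coding made up 50.3% of the Actn4 sum; over protein-coding transcripts alone the values were 1.43, 0.60, 0.74 and 0.39, called in cytoplasm and on light polysomes only. Actn1 averaged 6.18 FPKM in DDC cytoplasm and 2.30 FPKM in chow cytoplasm, a change of 1.13 ± 0.24 that was not called without chow cytoplasm replicate 1 (0.96). The heavy polysome call of Actn4 ended without replicate 2 of either diet in that fraction (0.84), and the monosome call of Actn1 without either DDC monosome library or chow monosome replicate 1 (0.65 to 0.83).

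Flna, filamin A, was low in every library, at 3.14 to 14.1 FPKM in DDC and 0.12 to 2.92 FPKM in chow. It was called in all 4 pools, with changes of 1.28, 3.35, 2.50 and 1.15. The cytoplasmic call ended without replicate 2 of either diet (1.04 to 1.14), and the heavy polysome call without either chow heavy polysome library or DDC heavy polysome replicate 1 (0.88 to 1.18). A processed transcript of 738 bases held 50.7% of its summed FPKM and a transcript annotated for nonsense-mediated decay 42.2%, while the main coding transcript held 4.0%. Over protein-coding transcripts alone the values were 0.53, 0.74, 0.41 and -0.0002, and none was called, so the Flna calls depend on transcripts not annotated as coding.

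The ERM proteins link filaments to the plasma membrane. Ezr, ezrin, had 8.26 and 8.60 FPKM in DDC cytoplasm against 1.42 and 0.92 FPKM in chow, 1.34 and 2.67 FPKM on DDC monosomes against 0.77 and 0.68 FPKM on chow monosomes, 1.89 and 1.30 FPKM on DDC light polysomes against 0.78 and 0.55 FPKM on chow light polysomes, and 1.31 and 4.48 FPKM on DDC heavy polysomes against 0.83 and 0.45 FPKM on chow heavy polysomes. It rose in cytoplasm (2.13 ± 0.36, adjusted p = 0.00159) and on heavy polysomes (1.13 ± 0.36, adjusted p = 0.0364); the heavy polysome call was lost in 7 of the 16 fits without 1 library, with values of 0.51 to 1.30, the lowest without DDC heavy polysome replicate 2. Msn, moesin, was at 1.19 to 7.42 FPKM in DDC libraries and 0.16 to 1.76 FPKM in chow libraries, and rose by 0.98 to 1.27 in the 4 pools. Its 4 calls ended in 3, 9, 11 and 10 of the 16 fits without 1 library, with values of 0.58 to 1.34.

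Both focal adhesion members rose in the 3 gradient fractions. Zyx, zyxin, had 14.2 and 15.5 FPKM in DDC cytoplasm against 5.43 and 5.31 FPKM in chow, 27.9 and 35.0 FPKM on DDC monosomes against 8.29 and 8.18 FPKM on chow monosomes, 34.1 and 34.6 FPKM on DDC light polysomes against 7.44 and 5.80 FPKM on chow light polysomes, and 41.2 and 42.7 FPKM on DDC heavy polysomes against 18.8 and 10.4 FPKM on chow heavy polysomes. Its changes were 1.31 ± 0.25, 1.80 ± 0.25, 2.22 ± 0.25 and 1.52 ± 0.25. Lasp1, a LIM and SH3 protein of adhesions, had 46.5 and 56.9 FPKM in DDC cytoplasm against 31.0 and 26.1 FPKM in chow, 28.2 and 55.9 FPKM on DDC monosomes against 16 and 20.1 FPKM on chow monosomes, 36.2 and 22.9 FPKM on DDC light polysomes against 9.33 and 8.60 FPKM on chow light polysomes, and 32.4 and 42.0 FPKM on DDC heavy polysomes against 14.5 and 15.2 FPKM on chow heavy polysomes. It was not called in cytoplasm (adjusted p = 0.081) and was called on monosomes (1.11), light polysomes (1.58) and heavy polysomes (1.26). Without chow replicate 1 or DDC replicate 2 of the same fraction, the Lasp1 calls on monosomes (0.62 to 0.95) and heavy polysomes (1.08 to 1.22) ended.

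Related genes outside the 38 were compared in cytoplasm by list, where 12.7% of all genes were called higher and 9.68% lower. Of 11 tested other tubulins and tubulin folding factors, 1 rose, Tuba8 (8.21 and 8.25 FPKM in DDC, 0.078 and 0 FPKM in chow); next by p was the folding cofactor Tbcb (0.85, adjusted p = 0.0961). Of 23 microtubule-associated and motor genes 4 rose and 2 fell, with Map4 (1.45) and Dynll1 (1.99) leading. Of 20 nucleation and elongation genes 4 rose and 1 fell (Evl 1.69, Fmnl3 0.94), and of 21 turnover and capping genes 7 rose and 1 fell (Cotl1 2.34, Wdr1 1.48). Of 17 crosslinking, spectrin and microvillus genes 7 rose and 2 fell (Pls1 2.68, Iqgap1 1.31), and of 20 other myosin and contractility genes 6 rose and 1 fell (Tagln2 6.06, Myo10 1.20). Of 19 adhesion genes 8 rose and 1 fell, with Csrp1 up by 2.76 and Fermt2 lower (-1.40).

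Placement on the gradient, the log2 difference of heavy polysomes minus monosomes, differed widely among members. In DDC 14 members were called higher on heavy polysomes (all genes, 18.2%) and 3 lower (14.5%), and in chow 15 higher (23.7%) and 4 lower (21.1%). With the replicate number as a block, which pairs fractions of a preparation, 6 members were lower in DDC. That block also joins the DDC cytoplasm libraries by number, although their preparation labels differ from those of the DDC fractions. With each library scaled to the same total, 9 were higher and 8 lower in DDC, and 11 higher and 9 lower in chow. That scaling shifts the median of all genes by -0.37 in DDC and -0.36 in chow. The shares of all genes called under the block or the scaling are not given here. These counts therefore have no background to be read against. Higher in both diets were 12 members: Tuba1b, Tuba1c, Tuba4a, Tubb4b, Tubb6, Stmn1, Pfn1, Cfl1, Arpc3, Myl6, Myl12a and Myl12b. Lower in both were Tmsb4x and Actn4. The share of all genes called in the same direction in both diets was not computed. Without 1 library of the fractions compared, the calls of Tuba1c, Tuba4a, Tubb2b and Tubb6 in DDC and of Tuba1c, Tuba4a, Tubb5, Tmsb10, Tpm2 and Zyx in chow ended in at least 1 fit; Tpm2 in chow (-0.87) was the least stable, ending in 13 of 16 fits and at -0.30 without chow heavy polysome replicate 1.

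Averaged over both diets, the thymosins had the lowest placements, and Myl6, Stmn1, Arpc3, Myl12b, Myl12a and Cfl1 had the 6 highest. Placement leaves out light polysomes, where Tmsb4x had its highest mean of the fractions in both diets (526 FPKM in DDC, 184 FPKM in chow). Tmsb10 did so in DDC (496 FPKM). In DDC, light polysomes were above monosomes for both thymosins in replicate 2 only. Tmsb4x had a placement of -2.47 ± 0.45 in DDC (adjusted p = 0.00154) and -3.50 ± 0.45 in chow (adjusted p = 8.61e-05). Tmsb10 had -1.59 ± 0.68 in DDC, not called (adjusted p = 0.0934; 0.0159 with the replicate block), and -2.12 ± 0.68 in chow (adjusted p = 0.0235). The Tmsb10 call in chow was lost when either chow monosome library or either chow heavy polysome library was left out, with values of -2.27 to -1.97 (adjusted p of 0.0589 to 0.101). Myl6 had 2.96 ± 0.29 in DDC and 3.50 ± 0.29 in chow, and Stmn1 2.89 ± 0.43 in DDC and 3.54 ± 0.43 in chow.

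Arpc3, which did not differ detectably by diet, had a placement of 2.67 ± 0.26 in DDC and 2.39 ± 0.26 in chow, whereas Arpc5 of the same complex was close to 0 in DDC and at -0.52 in chow and was not called. Actb had -0.70 ± 0.33 in DDC and 0.06 ± 0.33 in chow, not called in either. These Actb values include the short noncoding transcript that was listed at 0 in chow. Without transcripts under 500 bases, the diet change of Actb was 1.28 on monosomes and 1.09 on heavy polysomes. The long message of Actn4 (-1.99 in DDC, -1.58 in chow) lay towards monosomes, as did that of Myh9 in DDC (-1.39 ± 0.28, limma adjusted p = 0.00329). In chow Myh9 had -0.22 ± 0.28 and was not called (limma adjusted p = 0.577). Its chow levels were 0.63 and 0.44 FPKM on monosomes and 0.28 and 0.35 FPKM on heavy polysomes. These lie below the pseudocount of 1 FPKM, which compresses such differences. Tuba4a (0.88 in chow) and Zyx (0.70 in chow) were called higher on heavy polysomes, but Tuba4a became -0.13 under quantile normalization and Zyx -0.03 with equal library totals.

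**Figure D4:**
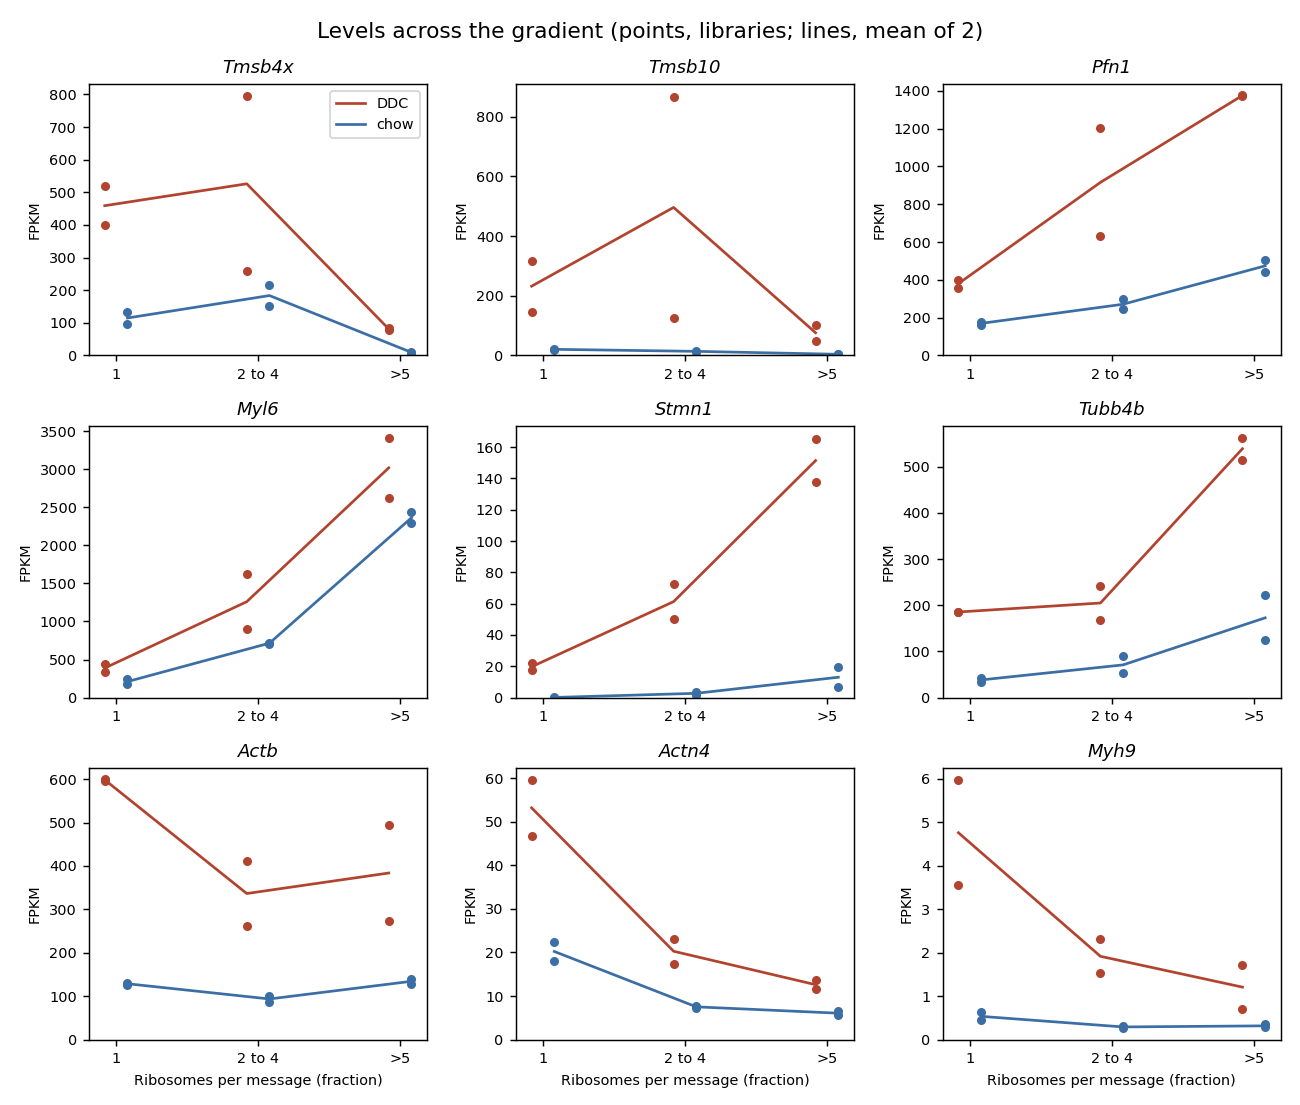
FPKM of 9 members in the 3 gradient fractions in order of ribosome number, with 1 point for each library and lines through the mean of 2, DDC in red and chow in blue; vertical scales differ between panels and start at 0. Tmsb4x and Tmsb10 drop at heavy polysomes in both diets, Pfn1, Myl6, Stmn1 and Tubb4b climb, and Actn4 and Myh9 are highest on monosomes.

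Ribosome number is limited by coding length, so placement was set beside it. Across the 37 tested members, coding length and placement averaged over both diets had Pearson r of -0.002 and Spearman rho of -0.18, a description over genes that share libraries and are not replicates. The rho was -0.26 in DDC alone and -0.07 in chow alone, and -0.40 (Pearson -0.43, n = 35) when both thymosins were left out, a choice made after their values were seen. By length the relation bent: the 3 members of at most 300 coding bases had a median placement of -1.85, the 8 of 301 to 700 bases had 2.07, the 19 of 701 to 1400 bases had 0.50 and the 7 longer ones had -0.25. The shortest group holds Tmsb4x and Tmsb10 at 135 bases and Arpc4 at 237 bases in its most abundant complete coding form, and Arpc4 was at 0.59. Arpc5 and Myl6 both have 456 coding bases, with -0.26 for Arpc5 and 3.23 for Myl6. The length is that of 1 complete coding transcript, while placement rests on the sum of all transcripts of a gene. For Flna that coding transcript held 4.0% of the sum. The Flna placement in chow, 1.62, became 0.0001 over protein-coding transcripts alone. Much of the Actn4 and Tuba4a sums also lay in other transcripts than the one measured for length.

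**Figure D5:**
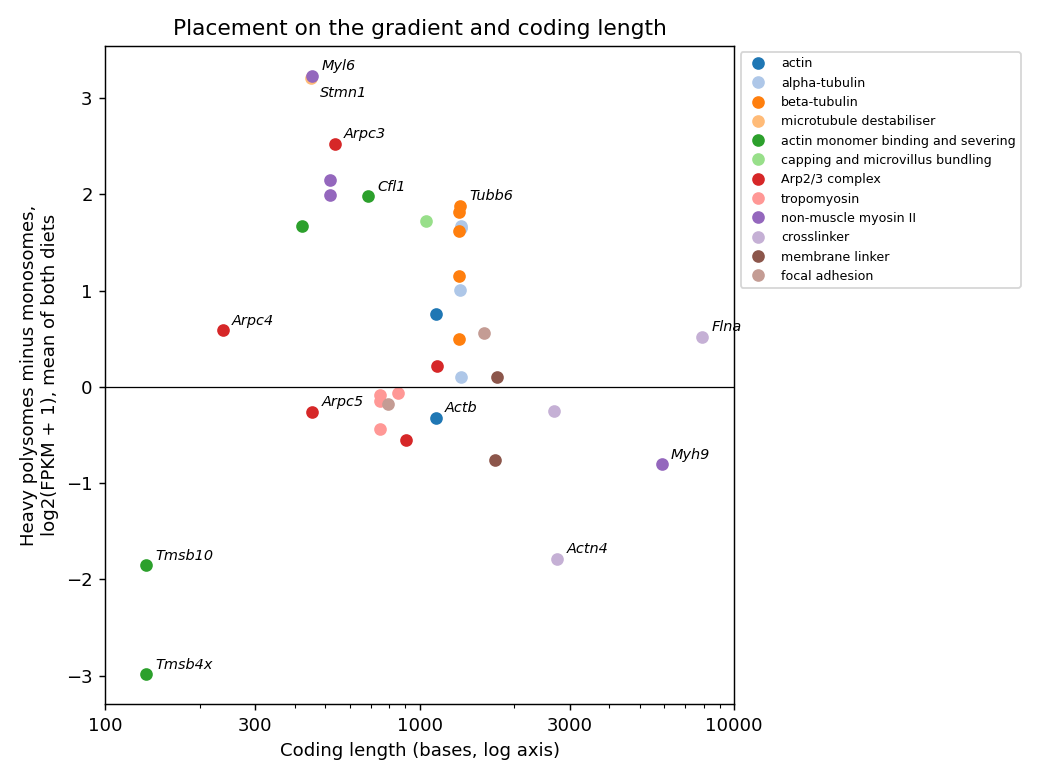
Coding length in bases (log axis) against the difference of heavy polysomes minus monosomes on the log2(FPKM + 1) scale, averaged over both diets, for 37 genes coloured by role. The 2 thymosins sit at the lower left, members of 301 to 700 bases hold the highest values (median 2.07), and members over 1400 bases centre near -0.25.

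The placement of members was also compared between diets. The difference between diets of heavy polysomes minus monosomes (DDC minus chow) was called for 1 member, Flna, which was lower (-2.20 ± 0.43, adjusted p = 0.0278; all genes, 0.996% higher and 0.902% lower). Flna had 9.19 and 6.09 FPKM on DDC heavy polysomes and 14.1 and 9.75 FPKM on DDC monosomes, against 2.76 and 2.92 FPKM on chow heavy polysomes and 0.40 and 0.12 FPKM on chow monosomes. Over protein-coding transcripts alone the value was -0.74 (adjusted p = 0.531). At an unadjusted p under 0.05 there were 2 members higher and 2 lower, where 10% of all genes were higher and 10.2% lower. The Flna call ended in 6 of the 16 fits without 1 library (chow cytoplasm replicate 1, chow monosome replicate 2, DDC monosome replicate 1, either chow heavy polysome library or DDC heavy polysome replicate 2), with values of -2.23 to -1.94. Tpm2 had 1.60 (adjusted p = 0.0861), which became 2.17 (adjusted p = 0.0365) without chow heavy polysome replicate 2, and Tmsb4x had 1.02 with a 95% interval of -0.36 to 2.40.

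For heavy polysomes minus cytoplasm, limma called 0 members (all genes, 0.0596% higher and 0.0426% lower), with 1 higher and 1 lower at an unadjusted p under 0.05 (all genes, 6.71% and 5.1%). Capg had the largest value, 2.04 ± 0.69 (adjusted p = 0.32). The 95% intervals of the 37 members reached a median of 0.94 to either side in each of these comparisons. These intervals are not adjusted for the number of genes tested, while calls needed an adjusted p under 0.05. Shifts well above 0.94 could therefore go uncalled with 2 libraries a group. For heavy polysomes minus monosomes, Tpm2 at 1.60 and Myh9 at -1.17 were not called. These diet differences share their chow libraries with the diet changes given before.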

How the data were processed

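The 38 members and all gene and marker lists were chosen with earlier results of these data known. Per the submitters' processing notes, the tools were Cuffnorm, Trimmomatic, bcl2fastq 2.17.1.14, Picard 1.119 and STAR 2.4.2a, and the build was GRCm38 (mm10); per the labels, libraries were poly(A)-selected. The deposited values are FPKM for each transcript, scaled between libraries by Cuffnorm; the file is named for counts but its values are not whole. Such scaling leaves sequenced depth unknown, so no counting interval is given, and a fixed pseudocount understates changes of low genes.

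From there, GENCODE M21 assigned a gene to 116728 of 117592 transcripts (99.27%), whose values were summed for each gene; the 864 left out held at most 0.51% of a library's FPKM. The filter asked for 1 FPKM or more in 2 or more libraries and left 11790 genes. Where both libraries of a group listed 0 for a gene that reached 100 FPKM in another group, the 2 values were taken as missing (49 genes, 0 members). The linear model of 8 group means on log2(FPKM + 1) used all 16 libraries (limma 3.58.1, R 4.3.3, mean-dependent trend, 8 residual and 3.905 prior degrees of freedom), calling genes at a Benjamini-Hochberg adjusted p under 0.05; the code was tested on simulated data. Coding lengths came from GENCODE, where the plan named RefSeq proteins.

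Values in every library are given for the member with the highest mean over all libraries in each of 12 roles and the one with the largest cytoplasmic change; 2 genes were named for each pathway list (lowest cytoplasmic p) and each marker list (highest mean). Of the pathway lists, 1 is not reported here. Labels name preparations shared by fractions within a diet: differences between replicates correlated at 0.305 to 0.365 between DDC fractions and 0.357 to 0.749 within chow, but at -0.05 to 0.161 for DDC cytoplasm with DDC fractions, and at -0.094 to 0.07 across diets, so numbers do not pair the diets. For each of the 8 comparisons 28 alternatives were run.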

Additional observations from a re-analysis of the deposited data

Results flagged for a closer look

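The placement of Flna differed between diets: the difference of heavy polysomes minus monosomes, DDC minus chow, was -2.20 ± 0.43 on the log2 scale by the interaction term of limma (adjusted p = 0.0278). It is 1 value among 37 members tested, and the sum it rests on is mostly transcripts not annotated as coding. Summed over protein-coding transcripts only, it was -0.74 (adjusted p = 0.531). The call ended in 6 of the 16 fits without 1 library, with values of -2.23 to -1.94 (adjusted p of 0.0501 to 0.0882).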

How the results depend on the processing

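No member was called lower by diet in any pool under the alternatives run, except 1 on light polysomes without DDC light polysome replicate 2 (range 0 to 1 over fits without 1 library). Without chow replicate 1, members called higher numbered 14 in cytoplasm, 17 on monosomes and 14 on heavy polysomes, members lower on heavy polysomes than on monosomes in chow numbered 2, and the diet difference of that placement had 0 called lower. Fitting only the libraries compared gave 5 higher on heavy polysomes by diet, 8 higher on heavy polysomes than monosomes in DDC and 0 for the diet difference. Member counts in this section have no share of all genes beside them. Alone they do not show whether members stood apart from other genes under a setting. Equal library totals gave 9 higher and 8 lower on heavy polysomes than monosomes in DDC and 9 lower in chow, and shifted the all-gene median by 0.18, 0.25, 0.24 and 0.28 in the 4 diet comparisons; quantile normalization gave 7 lower in DDC, no filter gave 2 lower in chow, and protein-coding transcripts gave 0 for the diet difference. The replicate block gave 6 lower in DDC. By diet it gave 30, 31, 27 and 29 higher in the 4 pools and moved no other count by over 1.5 times. In DDC it joins cytoplasm and fractions by number, although their preparation labels differ. Over fits without 1 library, members higher by diet ranged over 19 to 29 in cytoplasm, 20 to 29 on monosomes, 16 to 25 on light and 21 to 26 on heavy polysomes; members lower in chow placement over 2 to 4; and the diet difference over 0 to 1 in each direction. Calls kept under all alternatives were 11 of 28, 13 of 27, 11 of 23 and 4 of 26 by diet, 10 of 17 and 10 of 19 for placement in DDC and chow, and 0 of 1 for the diet difference. The direction reversed for Flna on heavy polysomes by diet with protein-coding transcripts (-0.0002), and for placement in chow for Tuba4a under quantile normalization (-0.13) and Zyx with equal totals (-0.026). The rho of coding length and placement was -0.258 in DDC, -0.068 in chow and -0.395 without both thymosins. Depth is unknown, and 2 libraries a group limit precision; where not stated, the cause of a change was not tested.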
